A study of Mus musculus with 6 samples.

Results

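The oligodendrocyte lineage was followed here through 9 genes, Olig1, Olig2, Sox10, Pdgfra, Cspg4, Gpr17, Lhfpl3, Bcas1 and Cnp, in the RNA of fetal mouse cortical cultures that received vehicle or 10HDA. They were taken from the 43346 genes of the count table by symbol, through the Ensembl identifier of each row. A row was found for 8 of the 9. The identifier of Lhfpl3 matched no row, and this gene was not analysed here. The cells came from fetuses at gestational day 15.5, all labelled SRY+ (male), and were grown as primary cortical cultures. One group received DMSO alone, the vehicle. The other received 1 mM 10HDA (trans-10-hydroxy-2-decenoic acid), a fatty acid of royal jelly that the study treats as an estrogenic compound. There were 6 libraries, 3 per treatment, and each of cultures 1, 3 and 4 gave 1 library of each treatment. Both groups carry the strain label Cyp19-EGFP, whereas the methods of this experiment name C57BL/6 embryos. How long the cells were exposed is not given in the sources used here, and neither is the number of fetuses behind a culture.

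Oligodendrocytes are the myelin-forming cells of the central nervous system. They arise from oligodendrocyte precursor cells (OPCs), dividing cells that carry the PDGF receptor alpha and the NG2 proteoglycan on their surface. The transcription factors Olig2 and Olig1 stand at the start of the lineage and are also made by other neural progenitors, whereas Sox10 is switched on once the lineage is specified and activates many of its later genes. Gpr17 and Bcas1 mark the step between precursor and myelinating cell, and Cnp encodes an enzyme of myelin that is already made at low level in younger cells.

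In these cultures Sox10 and the 2 genes of the OPC surface, Pdgfra and Cspg4, were lower with 10HDA in 3 of 3 cultures, as were the low-count genes Gpr17 and Bcas1. For Sox10 and Bcas1 the filter itself had set this direction. Of all genes tested 21.0% were lower in 3 of 3 cultures, and 19.2% at the lower filter used for Gpr17 and Bcas1. The genes of the 2 founding transcription factors were not called lower in any fit. Pdgfra stood at 32.8% to 47.5% of its vehicle level in the 3 cultures, Sox10 at 18.3% to 51.2% and Cspg4 at 51.3% to 55.2%. Olig2 stood at 105% to 129% and Olig1 at 90.0% to 116%. With culture as a block in the fit, Pdgfra, Sox10 and Cspg4 passed the threshold, and 5.08% of all genes were called lower. Without a culture term, which the methods of the study do not mention, only Cspg4 passed, and 0.428% of all genes were called lower.

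The libraries held from 9144736 to 13367194 counts on genes, and 3 counts corresponded to 0.224 to 0.328 CPM, the count of a gene relative to the library total. Levels are given below as CPM after TMM scaling, which corrects library totals for composition. All 6 libraries are labelled male, but Xist, which is transcribed from the inactive X chromosome of female cells, was present in each, at 1005 and 1461 CPM in culture 1, 416 and 413 in culture 3 and 777 and 630 in culture 4 (vehicle first). Genes of the Y chromosome (Uty, Kdm5d, Eif2s3y and Ddx3y, summed) reached only 8.83 and 9.41 CPM in the libraries of culture 1, against 90.0 to 131 CPM in the other 4. The libraries thus went against the label in all 3 cultures, and most in culture 1, so the paired results are also given without each culture. The label of the tissue was held against marker lists. Genes of neurons summed to 6939 to 8841 CPM and genes of astrocytes to 2092 to 3122, whereas the 24 myelin and mature oligodendrocyte genes summed to 113 to 151, with 12 of the 24 under 1 CPM in every library and Aspa at 0 counts. In bulk RNA, fewer cells of a type and less RNA per cell cannot be told apart.

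Differences were tested with edgeR's quasi-likelihood test on the 10520 genes that reached 10 CPM in 3 libraries or more, with Benjamini-Hochberg adjustment over all of them and a threshold of 0.1. Olig1, Olig2, Sox10, Pdgfra, Cspg4 and Cnp passed this filter. Sox10 passed it through the 3 vehicle libraries alone, which by itself put every 10HDA library below every vehicle library before scaling. Gpr17 and Bcas1 were tested among the 15311 genes that reached 1 CPM in 3 libraries or more. Bcas1 entered there through vehicle libraries only, so that the same held for it.

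**Figure D1:**
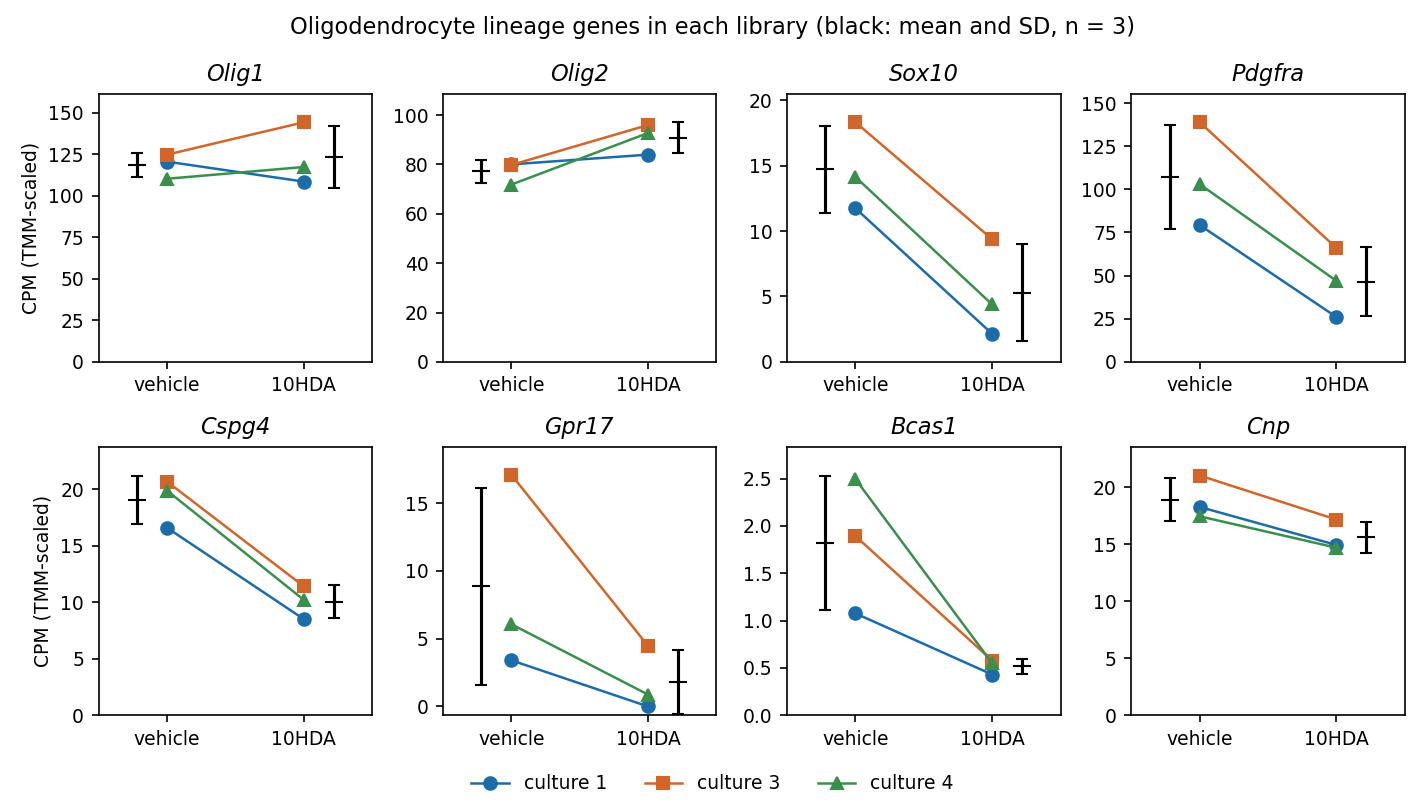
TMM-scaled CPM of the 8 measured genes in each library (linear axes), with a line joining the vehicle and 10HDA library of a culture and black bars for the mean ± SD of 3 libraries. The lines of Sox10, Pdgfra, Cspg4, Gpr17, Bcas1 and Cnp fall in 3 of 3 cultures, those of Olig2 rise, and those of Olig1 cross.

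Olig2 encodes a basic helix-loop-helix factor that specifies the lineage. It lies at chr16:91225457-91228677 (GRCm38, plus strand), 41094 bases from Olig1. Its level was 80.0, 79.8 and 71.8 CPM with vehicle and 83.9, 95.9 and 92.7 CPM with 10HDA in cultures 1, 3 and 4. The 10HDA library was the higher one in every culture, least so in culture 1, and the groups did not overlap. The difference on the log2 scale was 0.24 (SE 0.10), from 77.2 ± 4.66 to 90.9 ± 6.20 CPM (SD, n = 3), which did not pass the threshold (adjusted p = 0.463, and 0.176 with culture as a block, edgeR). Among the genes tested, 18.6% were higher in 3 of 3 cultures, and in 13.4% the groups did not overlap in one direction or the other.

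Olig1 encodes the related factor that acts later, in maturation. It lies at chr16:91269772-91271933, and 157 of its exon bases are shared with Gm15966 on the other strand. The vehicle libraries gave 120, 125 and 110 CPM and the 10HDA libraries 108, 144 and 117 in cultures 1, 3 and 4. The groups overlapped, with 10HDA lower in culture 1 and higher in the other two. Its log2 fold change of 0.059 had a 95% interval of -0.20 to 0.32 (adjusted p = 0.879, edgeR), so that a fall of the size seen for Cspg4 lies outside it.

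The 2 Olig genes were the most even of the set among vehicle cultures, with a ratio of highest to lowest of 1.13 for Olig1 and 1.11 for Olig2. Per length they were also the most abundant, at 54.8 and 31.7 RPKM with vehicle. The genes whose log2 CPM followed Olig2 most closely over the 6 libraries were Zc3h10 (Pearson r = 0.988), Pold1 (0.985), Otub2 (0.985), Hmgb2 (0.977) and Hnrnpc (0.974). For Olig1 the value was 0.608. These correlations share libraries and treatment groups and describe the pattern only.

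Sox10 encodes the high mobility group factor that drives differentiation in the lineage (chr15:79154908-79165240, minus strand). Its level was 11.7, 18.3 and 14.1 CPM with vehicle and 2.15, 9.38 and 4.39 CPM with 10HDA in cultures 1, 3 and 4. Every 10HDA library was below every vehicle library, as its passage of the filter had set, and culture 1 had the lowest value in both groups. Its log2 fold change was -1.44 (SE 0.37), from 14.7 ± 3.33 to 5.30 ± 3.70 CPM, a decrease of rank 1 among the 10520 genes and of rank 13 among the 15311 genes of the lower filter. It did not pass the threshold without a culture term (adjusted p = 0.202, edgeR) and did with one (-1.53, SE 0.19, adjusted p = 1.16e-05). Schwann cells and neural crest cells also express Sox10. Their list summed to 28.5 to 31.6 CPM with vehicle and 29.5 to 33.3 with 10HDA, its tested gene of 8 did not pass, and Foxd3 was at 0 counts.

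Pdgfra encodes the receptor for PDGF-A, the main mitogen of OPCs. It lies at chr5:75152292-75198215 (plus strand). The vehicle libraries held 79.3, 139 and 103 CPM and the 10HDA libraries 26.0, 66.0 and 47.0 CPM in cultures 1, 3 and 4. The groups did not overlap, and the cultures kept one order in both of them, with culture 3 highest and culture 1 lowest. The log2 fold change was -1.21 (SE 0.28), from 107 ± 30.0 to 46.3 ± 20.0 CPM, the decrease of rank 4 among the genes tested. Without a culture term the adjusted p was 0.148 (edgeR). With culture as a block it was 1.45e-07 (log2 fold change -1.26, SE 0.11), and the p was the smallest of the 10520 genes.

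Cspg4 encodes the NG2 proteoglycan of the OPC surface (chr9:56865033-56899870, plus strand). Its level was 16.6, 20.7 and 19.9 CPM with vehicle and 8.50, 11.4 and 10.2 CPM with 10HDA in cultures 1, 3 and 4. The groups stood apart, and the cultures differed from each other less than for Sox10 or Pdgfra. Cspg4 had a log2 fold change of -0.92 (SE 0.16), from 19.0 ± 2.16 to 10.0 ± 1.46 CPM, with an adjusted p of 0.0428 (edgeR) without a culture term and 8.95e-05 with one. It was the only one of the 6 tested genes called lower in the fit without a culture term, where 0.428% of all genes were called lower. With culture as a block 3 of the 6 were called lower, Pdgfra, Cspg4 and Sox10, and 5.08% of all genes were. The filter had set the direction of Sox10, so it is not held against this share.

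Pericytes and fibroblasts also express Pdgfra or Cspg4, and 1 marker of each was called lower with 10HDA. Pdgfrb, the sister receptor that marks pericytes, went from 15.4 ± 0.463 to 7.22 ± 1.93 CPM (log2 fold change -1.07, adjusted p = 0.0428, edgeR). Like Sox10, Pdgfrb passed the 10 CPM filter through the vehicle libraries alone, which had set its direction. The whole pericyte list of 9 genes summed to 40.3 to 47.6 CPM with vehicle and 28.8 to 36.0 with 10HDA, with 6 of the 9 under 1 CPM in every library. Without Pdgfrb the sums were 25.4 to 31.8 and 22.7 to 29.9, lower in 3 of 3 cultures but overlapping between the groups. The 8 fibroblast genes summed to 10.1 to 12.4 and 6.42 to 7.46 CPM, with 6 of the 8 under 1 CPM and Slc6a13 at 0. Most of that sum was Dcn, a proteoglycan of connective tissue, at 8.98 ± 0.223 and 4.39 ± 0.439 CPM (log2 fold change -1.02, adjusted p = 0.0422 in the 1 CPM fit, edgeR). Without Dcn, which was singled out after its values were seen, the fibroblast sums were 1.41 to 3.23 and 2.02 to 2.92 CPM, lower in 1 of 3 cultures. The part of these cells in the levels of Pdgfra and Cspg4 was not tested.

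**Figure D2:**
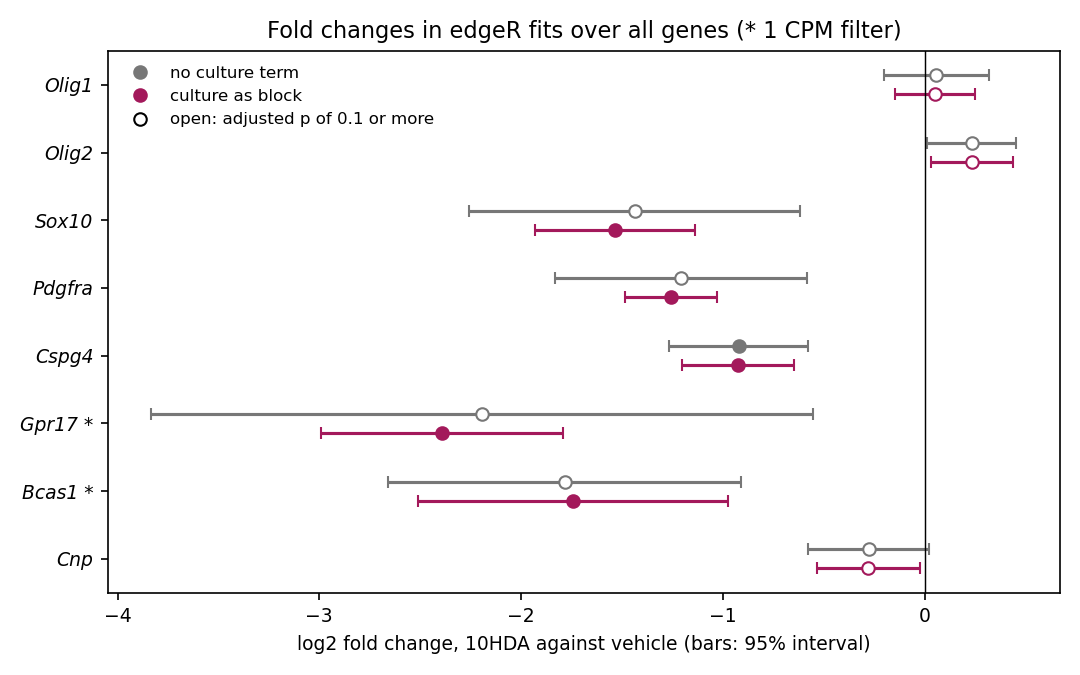
Log2 fold change of each gene, 10HDA against vehicle, with its 95% interval, in the edgeR fits without a culture term (grey) and with culture as a block (red), where filled points have an adjusted p under 0.1. Point estimates barely differ between the fits, and the intervals of Sox10, Pdgfra and Gpr17 are the ones that narrow most under the block.

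Gpr17 encodes a receptor that rises as precursors commit and is lost again in mature cells. It was counted 38, 226 and 73 times with vehicle and 0, 62 and 8 times with 10HDA in cultures 1, 3 and 4. As CPM these are 3.40, 17.1 and 6.07 against 0, 4.47 and 0.878. The vehicle level itself varied 5.02-fold between cultures, and the 10HDA library of culture 3 was above the vehicle library of culture 1, so the groups overlapped. Taking 3 counts as the floor of the 10HDA library of culture 1, the level there was at least 13.2-fold lower, and the 95% interval that also covers the error of the 38 vehicle counts allows 10.2-fold. In cultures 3 and 4 it was 3.82-fold and 6.91-fold lower. The fitted log2 fold change was -2.19 (SE 0.75, adjusted p = 0.337, edgeR) and -2.39 with culture as a block (SE 0.29, adjusted p = 2.23e-05), the largest decrease of 15311 genes in both.

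Bcas1 encodes a protein of newly formed, early myelinating oligodendrocytes (chr2:170346991-170427845, minus strand). Its counts were low, at 12, 25 and 30 with vehicle and 5, 8 and 5 with 10HDA in cultures 1, 3 and 4. All 3 10HDA libraries were under all 3 vehicle libraries, at 0.518 ± 0.0784 against 1.82 ± 0.712 CPM. The log2 fold change was -1.78 (SE 0.40, adjusted p = 0.130, edgeR), and -1.74 with culture as a block (adjusted p = 0.00769). Of the 15311 genes 19.2% were lower in 3 of 3 cultures, as Gpr17 was, and 6.99% were lower without overlap. Bcas1 met both, but its entry through vehicle libraries only had set this, so it is not held against these shares. In the 1 CPM fits, 0.327% of all genes were called lower without a block and 3.58% with it.

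Cnp encodes the phosphodiesterase of myelin and of immature oligodendrocytes (chr11:100574904-100591729, plus strand). It had 18.3, 21.0 and 17.5 CPM with vehicle and 14.9, 17.2 and 14.7 CPM with 10HDA in cultures 1, 3 and 4. The groups were just apart, and the difference was nearly the same in each culture. The log2 fold change of -0.28 (SE 0.14) did not pass the threshold in either fit (adjusted p = 0.525 without and 0.204 with culture as a block, edgeR), and 154 of its exon bases are shared with Dnajc7 on the other strand.

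Of the 6 tested genes, Pdgfra, Cspg4 and Cnp were lower in 3 of 3 cultures, as were 21.0% of all genes. These 3 were also lower without overlap of the groups, as were 7.44% of all genes. Sox10 met both too, but the filter had set this, so it is not held against these shares. The median log2 fold change of the 6 was -0.60, a value that lies between the genes that fell and the Olig genes and describes neither, beside -0.0095 over all genes tested. Set side by side per length, the vehicle means ran from 54.8 RPKM for Olig1 through 31.7 for Olig2, 15.9 ± 4.45 for Pdgfra, 5.43 for Sox10, 5.20 for Cnp, 2.36 for Cspg4 and 1.70 for Gpr17 to 0.482 for Bcas1. In this order the vehicle libraries of Sox10 and Cnp overlapped, and so did those of Cspg4 and Gpr17 and of Gpr17 and Bcas1, while the other neighbours stood apart. With 10HDA, Sox10 stood at 1.95 RPKM, below Cnp at 4.29.

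The question of how far single cultures set these values was taken up in 3 ways, of which the first is the ratio within each culture. An interval here is a 95% exact binomial one, compares a pair of libraries and covers counting error only. For Pdgfra the log2 ratio was -1.61 (interval -1.80 to -1.42) in culture 1, -1.07 (-1.19 to -0.96) in culture 3 and -1.13 (-1.29 to -0.97) in culture 4. Culture 1 thus fell further than the other two by more than counting error, and cultures 3 and 4 were alike within it. For Sox10 the ratio was -2.45 (-3.13 to -1.83) in culture 1, -0.97 (-1.28 to -0.65) in culture 3 and -1.69 (-2.22 to -1.18) in culture 4. Here culture 1 and culture 3 were apart by more than counting error, with culture 4 in between.

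For Cspg4 the ratios were -0.96, -0.86 and -0.96 in cultures 1, 3 and 4, and those of Cnp were -0.29, -0.29 and -0.25. Neither gene showed a difference between cultures beyond counting error. Bcas1 ran the other way from Sox10, with its largest ratio in culture 4 (-2.18, interval -3.91 to -0.80) and its smallest in culture 1 (-1.32, interval -3.18 to 0.28), but its intervals overlap widely. Of the 8 measured genes, 7 were lower in culture 1 and 6 in each of cultures 3 and 4. The difference is Olig1, at 90.0% of vehicle in culture 1 and at 116% and 106% in cultures 3 and 4.

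**Figure D3:**
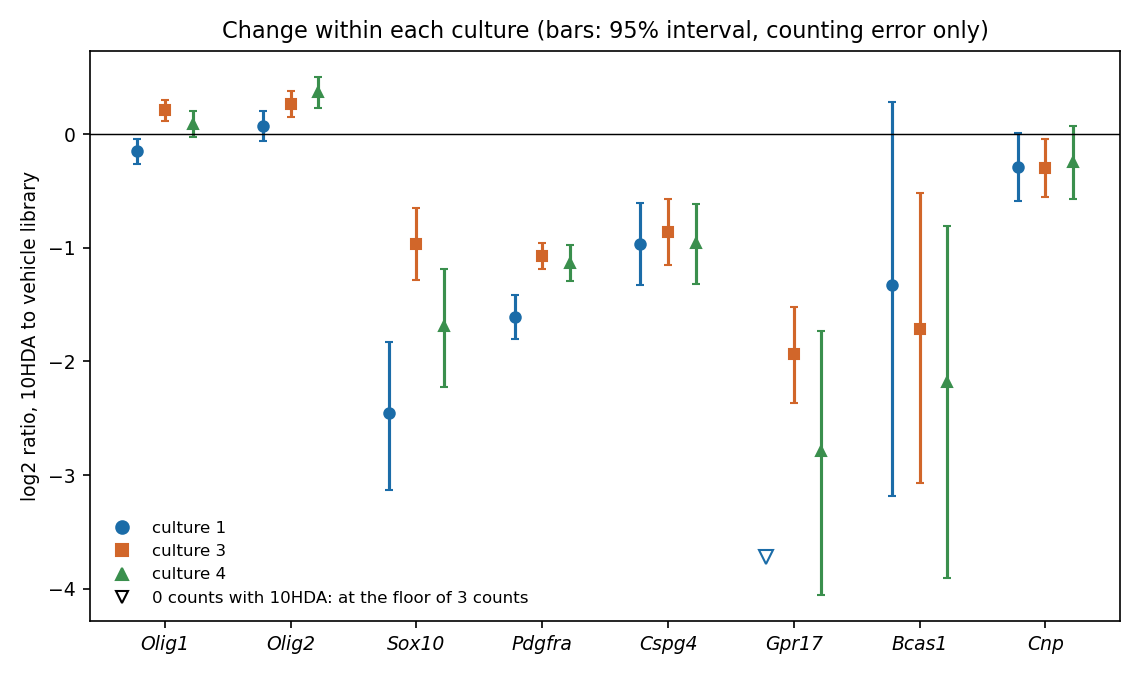
Log2 ratio of the 10HDA to the vehicle library within each culture, with 95% intervals that cover counting error only. The open triangle stands for Gpr17 in culture 1, where 10HDA gave 0 counts, and is drawn at the floor of 3 counts. Every point of Sox10, Pdgfra, Cspg4, Gpr17, Bcas1 and Cnp is below 0, and Pdgfra and Sox10 fall furthest in culture 1.

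The second way was to leave a whole culture out of the fit with culture as a block. Pdgfra, Sox10 and Cspg4 then remained past the threshold in 3 of 3 cases. Of all 10520 genes, 430, 643 and 195 were called lower without cultures 1, 3 and 4. The log2 fold change ran from -1.36 to -1.08 for Pdgfra, from -2.02 to -1.23 for Sox10 and from -0.96 to -0.89 for Cspg4, and the highest adjusted p were 2.25e-06, 0.000275 and 0.00155 (edgeR). For Pdgfra and Sox10 the smallest change and the highest p came without culture 1, the culture with few Y-linked counts. No culture on its own therefore made the paired calls of Pdgfra and Cspg4. For Sox10 the filter, set over all 6 libraries, had fixed the direction in these fits too. Culture 1 made the changes of Pdgfra and Sox10 larger. Gpr17 and Bcas1 also remained past the threshold in 3 of 3 cases, with log2 fold changes from -3.55 to -2.12 and from -1.89 to -1.55 and highest adjusted p of 2.59e-06 and 0.0914. The direction of Bcas1 had been set by its filter. Of the 15311 genes of their filter, 619, 731 and 214 were called lower without cultures 1, 3 and 4. Without a culture term, Cspg4 lost its call whichever culture was left out, with an adjusted p of 0.268 without culture 1, 0.273 without culture 3 and 0.144 without culture 4. Nearly all genes did so there, with 3, 0 and 9 of 10520 called, against 66 with all 6 libraries. These fits rest on 4 libraries, and their p depends on a spread shared with all other genes.

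The third way was to leave out 1 library at a time without a culture term. There the calls did turn on single libraries, for these genes and over all genes. Cspg4 lost its call without the vehicle library of culture 3 (adjusted p = 0.165), the vehicle library of culture 4 (0.206) or the 10HDA library of culture 1 (0.307). Of all 10520 genes only 2, 7 and 0 were called in these fits, against 66 with all 6 libraries. Pdgfra gained one without the 10HDA library of culture 3 (0.0599) or of culture 4 (0.0809), and Sox10 without the 10HDA library of culture 3 (0.0169, with a log2 fold change of -2.21). The groups did not overlap for Pdgfra, Sox10 or Cspg4, so leaving out 1 library could not turn their direction. Their log2 fold changes ran from -1.56 to -0.92 for Pdgfra, -2.21 to -1.06 for Sox10 and -1.03 to -0.81 for Cspg4.

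A comparison that needs no scaling between libraries is the count of each gene per 100 Olig2 counts of its own library. For Pdgfra it was 99.1, 174 and 143 with vehicle and 31.0, 68.8 and 50.7 with 10HDA in cultures 1, 3 and 4. For Sox10 it was 14.7, 23.0 and 19.7 against 2.56, 9.77 and 4.73, and for Cspg4 20.7, 25.9 and 27.7 against 10.1, 11.9 and 11.0. The groups stood apart for all 3 of these genes.

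They also stood apart for Bcas1, for Cnp, with 24.5 ± 1.77 and 17.2 ± 1.15 per 100 Olig2 counts, and for Olig1, with 153 ± 2.87 and 135 ± 13.0. The ratio of Gpr17 overlapped. In each case without overlap the exact two-sided permutation p was 0.1, the smallest that 3 libraries against 3 allow, so that none of these 7 ratios could pass 0.05, and adjustment over them cannot lower it. The ratio holds the rise of Olig2, which had no overlap itself, as well as the fall of the other gene. Olig1 overlapped in CPM but not as a ratio. The share of all genes that stand apart by this ratio was not computed, so the lack of overlap is given as a description only.

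**Figure D4:**
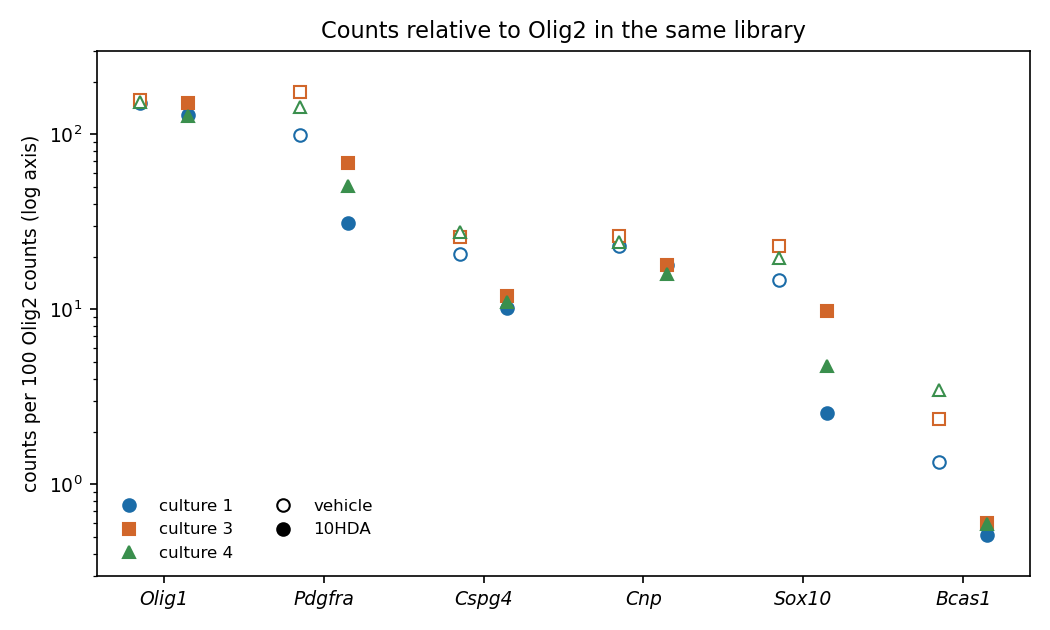
Counts of 6 genes per 100 Olig2 counts of the same library (log axis), with open symbols for vehicle and filled ones for 10HDA. The groups do not overlap for any of the 6. Gpr17, with a count of 0 in one library, is not drawn.

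The promoters of members that moved together and of Olig2 were read from RefSeq (GRCm38.p6), which gave one for 5 of the 9 genes, Lhfpl3, Pdgfra, Cspg4, Cnp and Olig2. Those of the 2 OPC surface genes that fell and of Olig2, which did not, are shown 5′ to 3′. Each covers the 250 bases before the RefSeq start, up to the start of the GENCODE gene where that comes first. Pdgfra is chr5:75152001-75152250, Cspg4 chr9:56864854-56865032 and Olig2 chr16:91225300-91225456, all on the plus strand. No letters are in capitals because no searched motif lies in the stretches shown.
Pdgfra: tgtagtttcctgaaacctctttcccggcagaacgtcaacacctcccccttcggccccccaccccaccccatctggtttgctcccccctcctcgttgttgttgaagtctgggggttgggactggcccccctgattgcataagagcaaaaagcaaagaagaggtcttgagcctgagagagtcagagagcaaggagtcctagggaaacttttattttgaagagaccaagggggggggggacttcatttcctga
Cspg4: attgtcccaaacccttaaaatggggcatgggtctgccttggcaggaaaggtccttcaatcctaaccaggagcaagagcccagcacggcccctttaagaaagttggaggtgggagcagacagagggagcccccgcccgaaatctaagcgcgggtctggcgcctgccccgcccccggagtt
Olig2: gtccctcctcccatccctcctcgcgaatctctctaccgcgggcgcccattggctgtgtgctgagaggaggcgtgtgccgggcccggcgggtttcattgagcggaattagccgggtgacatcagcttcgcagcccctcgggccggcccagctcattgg

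The motifs searched on both strands of the full 250 bases were the E-boxes CAGCTG and CATATG, the SOX cores AACAAT and ACAAAG, the palindromic estrogen response element with its 3 free bases and the TATA box TATAAA. Pdgfra and Cspg4 held none of them. Olig2 held the SOX core AACAAT, 67 to 62 bases before the start, and TATAAA, 8 to 3 bases before it, both past the stretch shown. Cnp held ACAAAG, 167 to 162 bases before the start. Of 32851 promoters of this length, 9.42% held AACAAT, 16.5% ACAAAG, 12.4% TATAAA, 13.0% CAGCTG, 3.46% CATATG and 0.0639% the estrogen response element. A match describes letters only. The GC content of the 250 bases was 66.8% for Olig2, 60.4% for Cspg4 and 54.4% for Pdgfra, with a median of 52.4% over all promoters.

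Other genes of the lineage were followed by stage. Of 24 further OPC genes 14 were tested, 11 of them lower with 10HDA and 3 higher, with a median log2 fold change of -0.21. Rlbp1, a retinoid-binding protein that both OPCs and astrocytes make, passed the threshold, from 35.7 ± 1.16 to 21.6 ± 3.12 CPM (log2 fold change -0.72, adjusted p = 0.0497, edgeR). Under the block 4 were called lower, where 5.08% of all genes were. These were Luzp2 (-0.85, adjusted p = 0.000151), Rlbp1 (-0.73), Pcdh15, a protocadherin of OPCs (-0.65, adjusted p = 0.00388), and Ptprz1, a receptor phosphatase shared with radial glia (-0.30, adjusted p = 0.0865). Sox8, which encodes the close relative of Sox10, was called higher there (0.38, adjusted p = 0.0365), from 31.2 ± 0.762 to 40.8 ± 4.89 CPM. Over all genes 3.91% were called higher in that fit. Without culture 1, 5 of the 14 were called lower and 0 higher, with 430 and 281 calls among all genes.

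Culture 1 stood apart in part of this list too. Ptprz1 was at 98.9% of vehicle in culture 1 and at 66.5% and 81.3% in cultures 3 and 4, and Pcdh15 was at 86.0%, 52.8% and 60.2%. For both, the smallest fall was in the culture where Pdgfra and Sox10 fell furthest. Luzp2 ran the same way, at 70.2%, 40.1% and 61.4% in cultures 1, 3 and 4. Rlbp1 went the other way, with its largest fall in culture 1 (50.2%, 66.2% and 65.6%).

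Among the lists of later stages calls were few, and most of their genes were too low to be tested or did not pass. Of 20 genes of committed and premyelinating cells 12 were tested and 0 passed in either fit, at a median log2 fold change of -0.036, and at an unadjusted p under 0.05 there were 0 without and 1 with culture as a block. The smallest p belonged to Tns3, a tensin of newly committed cells (-0.25, adjusted p = 0.530, edgeR). At the 1 CPM filter 17 were tested, with a median of -0.10, 0 past the threshold and 3 at an unadjusted p under 0.05, namely Tmem163 (-0.58), Tcf7l2 (0.58) and Zfp488 (-0.90). Enpp6, a marker of newly formed oligodendrocytes, had 0 counts in all libraries. Of the 24 myelin genes 5 were tested and 0 passed without a culture term (0 at an unadjusted p under 0.05), with the smallest p for the tetraspanin Tspan2 (-0.26, adjusted p = 0.520). In the fit with the block Qdpr, which encodes an enzyme of tetrahydrobiopterin recycling, was called higher (0.29, adjusted p = 0.0938). Mbp, the myelin basic protein, was chosen for mention after its values were seen, and stood at 14.4 ± 3.23 and 13.8 ± 4.01 CPM.

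Of 41 genes for signals that act on the lineage 27 were tested, and without a culture term 0 passed, with 6 at an unadjusted p under 0.05 (edgeR). The smallest p there was that of Fgfr2, a receptor for fibroblast growth factors (-0.39, adjusted p = 0.274). With culture as a block 3 were called lower, Fgfr2 (-0.39, adjusted p = 0.0390), Notch2 (-0.32, adjusted p = 0.0647) and the thyroid hormone receptor gene Thra (-0.32, adjusted p = 0.0468). The epidermal growth factor receptor gene Egfr (0.41, adjusted p = 0.0103), Smo, the transducer of hedgehog signals (0.42, adjusted p = 0.0265), and Smad5, a mediator of bone morphogenetic protein signals (0.31, adjusted p = 0.0599), were called higher there. In that fit 5.08% of all genes were called lower and 3.91% higher, and without culture 1 the calls of this list were 1 lower and 2 higher. Pdgfa, the ligand of Pdgfra and named for that reason outside the rule, was at 42.1 ± 4.40 and 36.4 ± 4.40 CPM (log2 fold change -0.21, adjusted p = 0.592).

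Of 24 chromatin and transcription regulators 23 were tested, with 12 higher, 11 lower and 0 past the threshold without a culture term (0 at an unadjusted p under 0.05, edgeR). Rest, a repressor of neuronal genes, had the smallest p (0.29, adjusted p = 0.500). In the fit with the block Sox4 was called higher (0.30, adjusted p = 0.0666), a factor of immature neural cells.

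**Figure D5:**
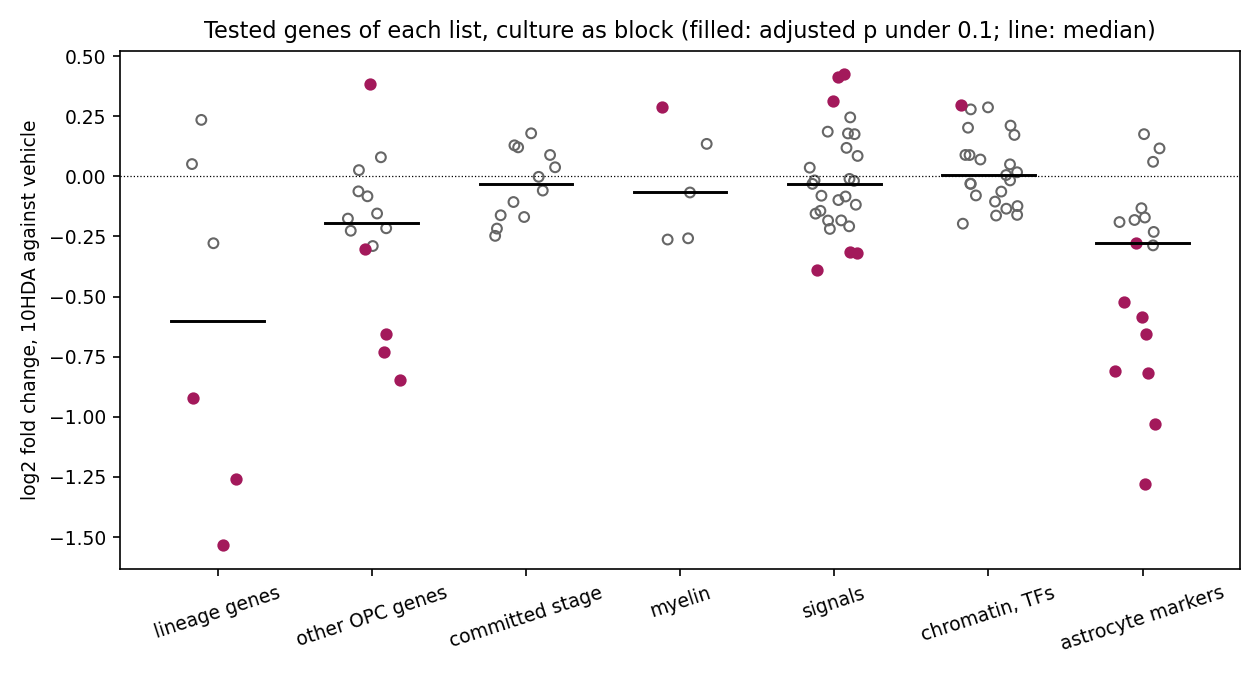
Log2 fold changes with culture as a block for the tested genes of each list, with filled points for an adjusted p under 0.1 and a line for the median. The 6 lineage genes spread from Sox10 at -1.53 to Olig2 at 0.23, the committed-stage and myelin lists lie within 0.30 of 0, and 8 of 17 astrocyte markers are called lower, against 5.08% of all genes.

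Markers of other cells in the cultures were measured beside these genes. Of 17 tested astrocyte markers 14 were lower, and Gfap, Aldh1l1, Aldoc, Clu and Slco1c1 were called lower without a culture term, where 0.428% of all genes were. With the block 8 of the 17 were called lower, against 5.08% of all genes, and 7 of the 17 without culture 1. Their list summed to 2682 to 3122 CPM with vehicle and 2092 to 2491 with 10HDA. Gfap, the astrocyte filament protein, was at 28.5% of vehicle in culture 1, 58.9% in culture 3 and 40.5% in culture 4, the order of Sox10. The 12 radial glia markers summed to 2053 to 2293 and 1766 to 1977 CPM, with 0 of 10 tested called without a culture term and 4 at an unadjusted p under 0.05 (edgeR). With the block 4 of the 10 were called lower, Tnc, Fabp7, Pdpn and Ptprz1, and Vim was called higher, where 5.08% of all genes were called lower and 3.91% higher. The part of these cells in the levels of the lineage genes was not tested.

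The remaining lists gave 0 calls without a culture term, with the number at an unadjusted p under 0.05 after each (edgeR). They were the neuron markers (10 tested, 9 lower, 4 at that p), the excitatory neuron markers (10 tested, 6 lower, 1), the ventral progenitor and interneuron markers (12 tested, 11 lower, 2), the intermediate progenitor markers (4 tested, 1 lower, 3) and the markers of dividing cells (7 tested, 2 lower, 0). With the block 4 neuron markers, 5 ventral progenitor and interneuron markers, 1 excitatory neuron marker and 1 intermediate progenitor marker were called lower, 2 intermediate progenitor markers higher and 0 markers of dividing cells (1 at an unadjusted p under 0.05). Over all genes 5.08% were called lower in that fit and 3.91% higher. Without culture 1 the ventral progenitor and interneuron calls fell to 1, while lower calls over all genes went from 534 to 430. Ventral progenitors also express the Olig genes. Their list summed to 629 to 767 CPM with vehicle and 524 to 722 with 10HDA. The 10 microglia and 8 endothelial markers summed to at most 8.67 and 3.91 CPM, none was tested, and Tmem119 was at 0 counts.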

How the data were processed

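RNA of 6 libraries was sequenced as single-end reads after a strand-specific library preparation. Per the methods, alignment was to mm10 with Subjunc, without trimming, and featureCounts assigned reads to Gencode genes. Subread 1.4.4 and edgeR 3.4.2 are in the submitters' processing notes. What the authors deposited are raw counts, neither normalized nor filtered. The strand setting of the counting is not stated, so reads of a gene and of an overlapping gene on the other strand may be mixed. Pdgfra shares 456 exon bases with Gm42802 and 166 with Gm42803, Gpr17 188 with Lims2 and Bcas1 440 with Bcas1os1, each on the opposite strand.

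Counts were scaled by TMM and fitted with edgeR 4.0.16 (glmQLFit, glmQLFTest) in R 4.3.3, with the filter of 10 CPM in 3 libraries and the threshold of 0.1 that the methods give. The methods mention no culture term, and the main fit had none, while the fits with culture as a block are alternatives to it. A standard error is the fold change over the square root of F, and RPKM uses the gene length of the table. Log2 CPM used a prior count of 2. Symbols and coordinates came from GENCODE M21 (GRCm38), which matched 98.0% of identifiers.

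The labels place 1 library of each treatment in each culture, which pairs them. The deviations of paired libraries from their group means correlated across genes at 0.37, 0.24 and 0.62 in cultures 1, 3 and 4, and at -0.45 to 0.18 between cultures. Alternatives were culture as a block, DESeq2's size factors and the test of DESeq2 1.42.0, upper quartile scaling, library size alone, limma-voom 3.58.1, the likelihood ratio test, other filters, and each library or culture left out. The fits of Gpr17 and Bcas1 and the list counts with a culture left out, and the marker sums without 1 gene, were added after seeing the data. In a simulation of this comparison on 10520 genes, 200 of 200 genes changed by 1 on the log2 scale were recovered, with 32 false calls. Its counts were drawn for each library on its own, with no effect of culture. It checks the code and not the power of the real fit, which left Pdgfra (-1.21) and Sox10 (-1.44) uncalled without a culture term.

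All 9 genes are named, with each listed lineage gene past the threshold or, if none, the one with the smallest p, and the 5 genes most correlated with Olig2. The genes, lists and tests were chosen with earlier results of these data known.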

Additional observations from a re-analysis of the deposited data

How the results depend on the processing

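The common biological coefficient of variation was 0.12 without a culture term and 0.085 with culture as a block, and over all genes 66 and 945 were called. With the replicate block, 3 of the 6 tested lineage genes and 2 of the 2 low-count ones (Gpr17 and Bcas1) were called lower, against 1 and 0 without it. Sox10 and Bcas1 are among those called, and the filter had set their direction. The block also raised calls of further OPC genes to 4 lower and 1 higher, of myelin genes to 1 higher, of signals to 3 lower and 3 higher, and of regulators to 1 higher.

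The likelihood ratio test called 3 of the 6 lower, with 218 calls over all genes, and so did the fit without a filter, with 636 among 26859 genes. DESeq2's test gave 170 calls over all genes, 58 higher and 112 lower, and an adjusted p of 0.203 for Pdgfra, 0.350 for Sox10 and 0.000821 for Cspg4. Library size alone gave 49 calls, 22 higher and 27 lower, against 21 and 45 with TMM, and moved the median of all genes to 0.064. The median of the 6 genes was then -0.52, and -0.57 with upper quartile scaling, and their medians in cultures 1, 3 and 4 were -0.57, -0.49 and -0.52, against -0.63, -0.58 and -0.60 with TMM.

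With libraries or cultures left out, the number of the 6 called lower ran from 0 to 3, their median from -0.69 to -0.50, and the number of low-count genes called from 0 to 2, which were 2 with the block and any culture left out. Without both libraries of culture 1 the median was -0.57, also with the block. Calls over all genes fell to 2, 7 and 0 without vehicle replicate 3, vehicle replicate 4 and 10HDA replicate 1 (469 at an unadjusted p under 0.05 in the last), and were 350 without 10HDA replicate 4. Without 10HDA replicate 3 the fold change of Olig1 turned from 0.059 to -0.07 (the range over single libraries left out was -0.070 to 0.14), and without both libraries of culture 3 to -0.031, or -0.032 with the block. Gpr17 ran from -4.48 to -1.29 on the log2 scale and Bcas1 from -2.03 to -1.50. The cause of these shifts was not tested. With 5 to 30 counts a library, small changes of Bcas1 were not detectable.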
